A study of Mus musculus with 8 samples.

Results

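The genes described here are 10 genes of iron storage, iron transport and heme breakdown in the mouse cerebral cortex, Fth1, Ftl1, Tfrc, Trf, Slc40a1, Slc11a1, Slc11a2, Cp, Hmox1 and Hmox2. They were chosen by symbol, and all 10 were found among the 54752 genes of the count tables. The right cerebral cortex of 4 Sham and 4 BCAS mice was sequenced 3 weeks after surgery, with 1 mouse in each library. All were adult male wild-type C57BL/6 mice, given as C57BL/6 J in the methods. BCAS stands for bilateral carotid artery stenosis, in which coils wound around the common carotid arteries narrow them and lower the blood flow to the brain. The narrower coil lay on the right side, the side of the sequenced cortex. Sham mice had the same operation without coils, and some mice of the study did not survive BCAS, so the BCAS libraries come from survivors.

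Iron is needed for respiration, myelin and transmitter synthesis, but free ferrous iron is toxic. Cells take up iron bound to transferrin (Trf) through the transferrin receptor (Tfrc), move it out of vesicles through the divalent metal transporters Slc11a2 (DMT1) and, in phagocytes, Slc11a1 (NRAMP1), and store it in a shell of ferritin heavy (Fth1) and light (Ftl1) chains. Ferroportin (Slc40a1) exports iron with the help of ferroxidases such as ceruloplasmin (Cp), and the heme oxygenases, inducible Hmox1 and constitutive Hmox2, free iron from heme. In cells with little iron, the iron regulatory proteins bind iron-responsive elements, hairpins with a CAGUGN loop. Bound near the start of the ferritin and ferroportin mRNAs they block translation, and bound in the 3′ UTR of Tfrc mRNA they protect it from decay. Read counts measure the mRNA and not its translation.

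Matches to the hairpin are shown for the genes that held one. These divide into genes with a match in the 5′ UTR and the gene with matches in the 3′ UTR. The pattern searched was a C, 5 bases, the 6-base loop CAGTGN and 5 bases that pair with the first 5, with G-T pairs allowed, on the transcribed strand of the annotated UTRs (GENCODE vM21, GRCm38, the same build as mm10). It was found in 4 of the 10 genes. Over all genes, 0.151% of those with a 5′ UTR and 0.615% of those with a 3′ UTR held it there. The ferritin, ferroportin and Tfrc mRNAs are known carriers of this element, as described above, so these shares are no test. The loop is in capitals, and sequences are written 5′ to 3′ as DNA.
Fth1, 5′ UTR, chr19:9982738-9982754, plus strand: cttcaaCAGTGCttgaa
Ftl1, 5′ UTR, chr7:45459785-45459801, minus strand: cttcaaCAGTGTttgaa
Slc40a1, 5′ UTR, chr1:45925471-45925487, minus strand: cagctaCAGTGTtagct
Tfrc, 3′ UTR, chr16:32631225-32631241, plus strand: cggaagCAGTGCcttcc
Tfrc, 3′ UTR, chr16:32631604-32631620, plus strand: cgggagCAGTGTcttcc
Tfrc, 3′ UTR, chr16:32631669-32631685, plus strand: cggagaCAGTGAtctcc
Tfrc, 3′ UTR, chr16:32631716-32631732, plus strand: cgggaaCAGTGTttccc
The Fth1 and Ftl1 elements share both stem arms, and the last base of the loop differs. Among the other genes of the wider iron and heme list introduced below, Alas2 alone held the pattern, in its 5′ UTR. A match describes these letters, and other forms of the hairpin were not searched. Genes without a match may therefore still hold an element, in either UTR.

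The total counts ranged from 16759364 to 21794435 per library. Levels are given as counts per 1000000 (CPM) after TMM scaling of the library sizes, and 3 counts in the smallest library equal 0.187 CPM on this scale, a floor that covers counting error only. Genes were compared with edgeR's quasi-likelihood test over 17136 tested genes, with Benjamini-Hochberg adjustment, and all 10 genes were among them. Over all tested genes, 5490 (32%) had an adjusted p under 0.05, 3291 higher and 2199 lower in BCAS mice. With no scaling beyond the library size these were 3984 and 1294. The number lower was 418 without sham mouse 1 and 3675 without BCAS mouse 2. Of the 10 genes, 5 rose and 1 fell at this threshold, and the 5 that rose also had an absolute log2 fold change above 1, as 11% of all tested genes did in that direction. Their median log2 fold change was 0.95, against -0.01 for all tested genes. Groups did not overlap for 5 of the 10 genes, against 34.8% of all tested genes. These figures describe the 10 genes and do not set them apart from other genes.

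The ferritin light chain rose, and the difference in the heavy chain did not pass the test. Ftl1 (ENSMUSG00000050708.16, chromosome 7, 45457944 to 45459884) was at 104, 106, 90.8 and 96.3 CPM in sham mice 1 to 4. In BCAS mice 1 to 4 it was at 670, 160, 440 and 315 CPM. Each BCAS mouse lay above every sham mouse, and mouse 1 was the highest and mouse 2 the lowest of the BCAS mice. The mean went from 99.3 ± 7.05 to 396 ± 216 CPM (SD, n = 4), a log2 fold change of 1.996 with a standard error of 0.36 (edgeR, adjusted p = 0.00637). In bulk tissue, a change in the number of cells that express a gene and a change in the RNA per cell cannot be told apart, and this holds for every gene below.

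Fth1 (ENSMUSG00000024661.6, chromosome 19, 9982703 to 9985092), the chain that carries the ferroxidase site, was by far the most abundant of the 10 genes. Sham mice 1 to 4 had 1852, 1762, 1320 and 1687 CPM, and BCAS mice 1 to 4 had 3496, 1785, 2886 and 2216 CPM. BCAS mouse 2 lay within the sham range and the other BCAS mice above it. The log2 fold change was 0.65 with a standard error of 0.22 (edgeR, adjusted p = 0.0527), so Fth1 missed the threshold narrowly. Without BCAS mouse 2 it was 0.81 (edgeR, adjusted p = 0.00603). In the other 7 fits without a mouse it did not pass (edgeR, adjusted p of 0.0632 to 0.125), and it was lowest, at 0.49, without BCAS mouse 1.

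The ratio of Fth1 to Ftl1 within a library, with each level divided by exon length (RPKM), was lower in every BCAS mouse than in any sham mouse. Sham mice 1 to 4 had ratios of 27.5, 25.7, 22.5 and 27.1. The ratios of BCAS mice 1 to 4 were 8.07, 17.3, 10.1 and 10.9. This within-library ratio does not depend on how the libraries were scaled, and it is given as a description with no test. Its absolute value is not the ratio of the chains' mRNAs. The recorded counting call had no option for pairs that map to several places or to several genes, ferritin has processed copies in the genome, and 34.6% of the exon bases of Ftl1 lie under Gm10252 or Gm22133. Of the copies in the tables, Ftl1-ps1 had the most counts, 11 to 24 in sham and 38 to 182 in BCAS libraries, with a log2 fold change of 2.23 (edgeR, adjusted p = 0.00762), close to that of Ftl1. Ftl2-ps and Fth-ps2 had 28 and 15 counts in all 8 libraries together, and the other 11 copies and relatives had none.

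**Figure D1:**
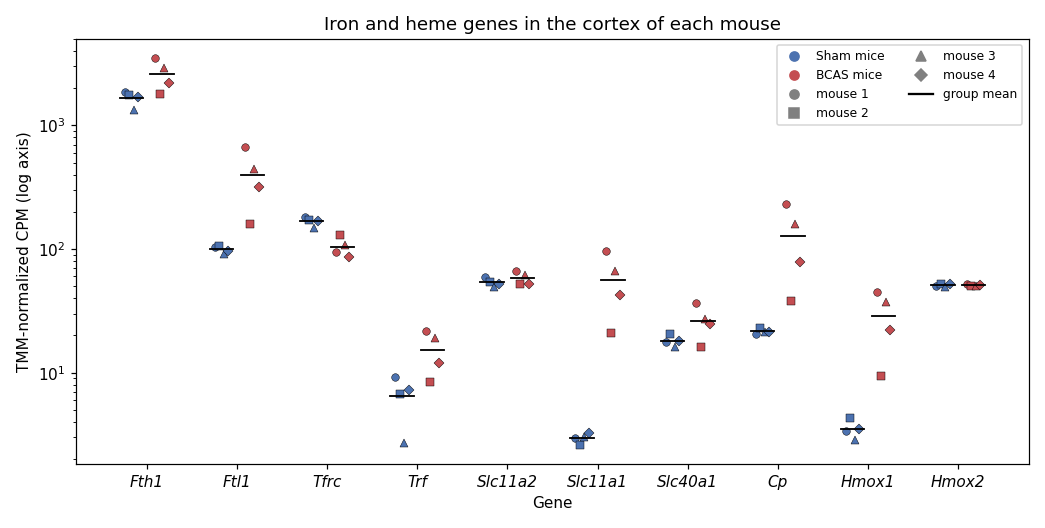
TMM-normalized CPM of the 10 genes in each of the 8 mice, on a log axis, with sham mice in blue, BCAS mice in red, a symbol for each mouse number and a bar at each group mean. Ftl1, Slc11a1, Cp and Hmox1 lie higher in all 4 BCAS mice than in any sham mouse, Tfrc lies lower, and Hmox2 lies at about 51 CPM in both groups.

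Of the genes of iron uptake, Tfrc fell and Slc11a1 rose. Tfrc (ENSMUSG00000022797.16, chromosome 16, 32608920 to 32632794) stood at 182, 172, 149 and 170 CPM in sham mice 1 to 4. BCAS mice 1 to 4 had 94.1, 129, 108 and 86.8 CPM. The groups did not overlap, and BCAS mouse 2 was the nearest to the sham mice. The log2 fold change was -0.68 with a standard error of 0.13 (edgeR, adjusted p = 0.00738), and the mean fell from 168 ± 13.7 to 105 ± 18.6 CPM (SD, n = 4). Tfrc was the only one of the 10 genes that fell at an adjusted p under 0.05, and it is the gene with the 3′ UTR elements printed above. It kept an adjusted p under 0.05 in all 17 alternative fits, with log2 fold changes between -0.79 and -0.60.

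The summed CPM of 8 neuronal markers (Rbfox3, Snap25, Syt1, Tubb3, Slc17a7, Gad1, Nefl and Map2) moved the same way, at 9171 to 10730 in sham and 3610 to 7769 in BCAS mice, and 7 of the 8 fell at an adjusted p under 0.05. Tfrc amounted to 1.67% ± 0.0354 of this sum in sham mice and 1.91% ± 0.470 in BCAS mice (SD, n = 4), and the groups overlapped. The sum of 8 endothelial markers overlapped between the groups, at 356 to 456 and 405 to 612 CPM, and relative to that sum Tfrc was lower in all 4 BCAS mice, at 22.0% ± 7.82 against 40.5% ± 0.939. The part of either cell type in the fall of Tfrc was not tested.

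Slc11a1 (ENSMUSG00000026177.11, chromosome 1, 74375195 to 74386062), a metal pump of the phagosome membrane of macrophages and microglia, had the largest fold change of the 10 genes. Sham mice 1 to 4 had 52, 42, 53 and 54 counts of it, and BCAS mice 1 to 4 had 2187, 405, 1237 and 784. Each BCAS mouse lay far above the sham range. The mean went from 2.97 ± 0.264 to 56.6 ± 32.3 CPM (SD, n = 4), a log2 fold change of 4.25 with a standard error of 0.45 (edgeR, adjusted p = 0.00146). Its relative Slc11a2 (ENSMUSG00000023030.16, chromosome 15, 100387898 to 100425072), which moves iron out of endosomes in most cells, had means of 53.8 ± 4.54 and 58.4 ± 7.17 CPM, a log2 fold change of 0.12 with a standard error of 0.11 (edgeR, adjusted p = 0.407). The groups overlapped for Slc11a2. Per exon length, Slc11a1 stood at 0.0825 to 0.108 of Slc11a2 in the sham mice, and at 2.47, 0.685, 1.85 and 1.39 in BCAS mice 1 to 4, so that it exceeded Slc11a2 in BCAS mice 1, 3 and 4 and not in mouse 2.

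Trf (ENSMUSG00000032554.15, chromosome 9, 103204001 to 103230444) was measured on a small part of its exons. The gene model Gm20425 covers 63.5% of its exon bases on the same strand and has 0 counts in all 8 libraries, and 1212 exon bases of Trf are free of it. Its level is therefore no measure of how abundant transferrin mRNA is. Sham mice 1 to 4 had 163, 107, 47 and 119 counts of Trf. BCAS mice 1 to 4 had 491, 163, 356 and 221. In CPM, BCAS mouse 2 (8.40) lay below sham mouse 1 (9.26). The log2 fold change was 1.25 with a standard error of 0.39 (edgeR, adjusted p = 0.0401). The call was lost in each of the fits without a sham mouse or without BCAS mouse 1, 3 or 4 (edgeR, adjusted p of 0.0559 to 0.0979). Without sham mouse 3, the lowest for Trf at 2.69 CPM, the log2 fold change was 0.98.

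Mature oligodendrocytes and the choroid plexus are the known sources of transferrin mRNA in the brain. The summed CPM of 8 oligodendrocyte markers was also lowest in sham mouse 3, at 4037, against 6221 to 6472 in the other sham mice and 5610 to 8623 in BCAS mice. None of those 8 markers passed an adjusted p under 0.05. The choroid plexus markers gave 776 CPM in sham mouse 3 and 15.8 to 71.4 CPM in the other 7 libraries. Trf was thus lowest in the library with the most choroid plexus RNA, and the part of either source was not tested.

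**Figure D2:**
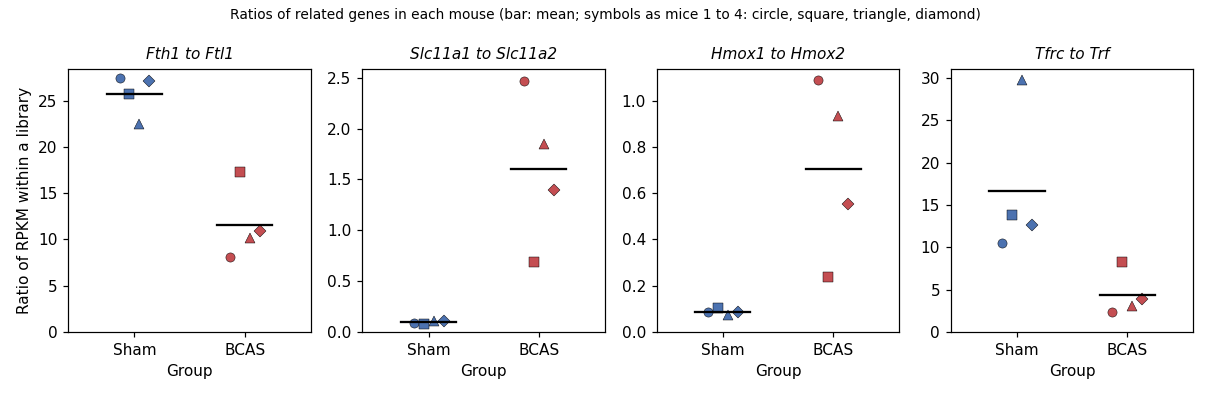
Ratios of RPKM (over all exon bases) of related genes within each library, for Fth1 to Ftl1, Slc11a1 to Slc11a2, Hmox1 to Hmox2 and Tfrc to Trf, with points for mice and bars for group means. The groups are separate in all 4 panels, with BCAS mice lower for Fth1 to Ftl1 and Tfrc to Trf and higher for the other two.

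Of the export genes, Cp rose and the change of Slc40a1 did not pass the test. Cp (ENSMUSG00000003617.16, chromosome 3, 19957054 to 20009145), the copper ferroxidase that loads exported iron onto transferrin, gave 364, 367, 371 and 354 counts in sham mice 1 to 4, which barely differed. BCAS mice 1 to 4 gave 5305, 738, 2956 and 1455. The mean went from 21.5 ± 0.952 to 128 ± 86.7 CPM (SD, n = 4), a log2 fold change of 2.57 with a standard error of 0.48 (edgeR, adjusted p = 0.00688). BCAS mouse 1 stood at 10.8 times and BCAS mouse 2 at 1.77 times the sham mean, so the size of the rise differed much between mice while each lay above the sham range. Only 1.13% of the exon bases of Cp are shared with another gene, Hps3.

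Slc40a1 (ENSMUSG00000025993.10, chromosome 1, 45908068 to 45926523), the only known exporter of cellular iron, gave 17.7, 20.5, 16.2 and 17.9 CPM in sham mice 1 to 4. BCAS mice 1 to 4 gave 36.5, 16.2, 27.1 and 24.7 CPM. BCAS mice 1, 3 and 4 lay above all sham mice, and BCAS mouse 2 lay level with the lowest of them. The log2 fold change was 0.53 with a standard error of 0.22 (edgeR, adjusted p = 0.0851), and 0.72 without BCAS mouse 2 (edgeR, adjusted p = 0.00427). In the other 7 fits without a mouse it did not pass (edgeR, adjusted p of 0.117 to 0.182), and without BCAS mouse 1 it was 0.34. The ferroxidase Heph, a relative of Cp, had a log2 fold change of 0.71 (edgeR, adjusted p = 0.0185), and 0.0555 was the adjusted p without BCAS mouse 3.

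Of the heme oxygenases, Hmox1 rose and Hmox2 had nearly the same level in all 8 mice. Hmox1 (ENSMUSG00000005413.8, chromosome 8, 75093621 to 75100589), the stress-inducible enzyme, was counted 59, 69, 50 and 58 times in sham mice 1 to 4. In BCAS mice 1 to 4 it was counted 1027, 184, 691 and 408 times, in each above the sham range. The mean went from 3.50 ± 0.600 to 28.5 ± 15.9 CPM (SD, n = 4), a log2 fold change of 3.03 with a standard error of 0.44 (edgeR, adjusted p = 0.00302). Hmox2 (ENSMUSG00000004070.15, chromosome 16, 4726361 to 4766742), the constitutive enzyme of neurons and other cells, ranged from 49.2 to 52.4 CPM in sham and from 50.1 to 52.5 CPM in BCAS mice. Its log2 fold change was 0.0020 with a standard error of 0.064 (edgeR, adjusted p = 0.983), the smallest change and the smallest standard error of the 10 genes, and its sign changed under some alternatives. Exons of Cdip1 on the opposite strand cover 40.2% of the exon bases of Hmox2, and the counting did not use strand. Cdip1 itself had a log2 fold change of -0.40 (edgeR, adjusted p = 0.0334).

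Per exon length, Hmox1 stood at 0.0735 to 0.104 of Hmox2 in the sham mice, and at 1.09, 0.239, 0.936 and 0.553 in BCAS mice 1 to 4. When the exon bases shared with other genes were left out of the length, it stood at 0.0439 to 0.0622 in sham mice and at 0.651, 0.143, 0.559 and 0.330 in BCAS mice 1 to 4. The groups were separate on both scales. Hmox1 exceeded Hmox2 only in mouse 1, and only on the scale whose length for Hmox2 includes the bases under Cdip1.

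**Figure D3:**
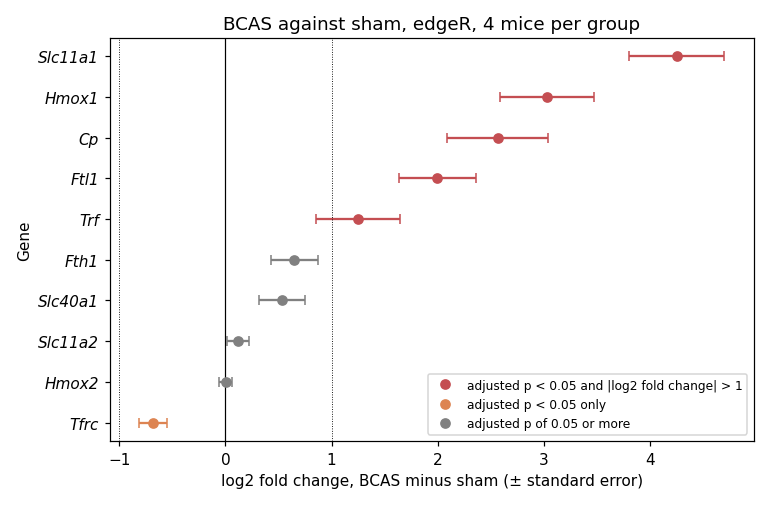
Log2 fold change of BCAS minus sham for the 10 genes, with bars of 1 standard error, from edgeR's quasi-likelihood test with 4 mice per group, and dotted lines at -1 and 1. Slc11a1, Hmox1, Cp, Ftl1 and Trf lie to the right of the upper line in red, Tfrc is the gene that fell, and Hmox2 lies on 0.

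The levels of 7 of the genes can be set in order per exon length, since few or none of their exon bases are shared with other genes. The sham mice had a mean of 1911 ± 270 RPKM for Fth1, 27.2 ± 2.22 for Tfrc, 8.47 ± 0.715 for Slc11a2, 2.25 ± 0.0995 for Cp, 2.01 ± 0.198 for Slc40a1, 2.001 ± 0.343 for Hmox1 and 0.801 ± 0.0713 for Slc11a1 (SD, n = 4). The ranges of Cp, Slc40a1 and Hmox1 over the sham mice overlapped, although within each sham library Cp lay above Slc40a1. In BCAS mice Slc11a1, Hmox1 and Cp were at 15.3 ± 8.73, 16.3 ± 9.07 and 13.3 ± 9.06 RPKM, and each overlapped both with Tfrc at 16.9 ± 3.01 and with Slc11a2 at 9.18 ± 1.13. Fth1 was the highest in both groups, at 2998 ± 868 RPKM in BCAS mice. Ftl1, Hmox2 and Trf share more of their exons, so their levels depend on the length used. In sham mice Ftl1 was at 74.1 RPKM over all its exon bases and at 113 over the unshared bases, below Fth1 and above Tfrc on both scales. Hmox2 was at 23.0 and 38.5 RPKM, below Tfrc on the first scale and above it on the second. Trf was at 1.94 and 5.32 RPKM, and is not placed in the order. This second scale was chosen after the values were seen.

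The BCAS mice differed in the same order for most of the genes. BCAS mouse 1 had the highest and BCAS mouse 2 the lowest of the 4 values for 9 of the 10 genes, against 27.4% of all tested genes. For another 26.6% of all tested genes mouse 2 was highest and mouse 1 lowest, so these mice often stood at opposite ends. The 9 include Hmox2, whose BCAS values spread less than its sham values. The exception was Tfrc, in which mouse 2 was the highest and mouse 4 the lowest. The sum of 8 microglial markers, among them P2ry12, Tmem119, Cx3cr1 and Csf1r, also placed mouse 1 at the top and mouse 2 at the bottom. It was 340 to 416 CPM in sham mice and 4600, 1272, 2277 and 2467 CPM in BCAS mice 1 to 4, and 8 of 8 markers passed both thresholds. The sum of 6 leptomeningeal fibroblast markers was 62.2 to 81.6 CPM in sham and 693, 139, 720 and 309 CPM in BCAS mice, with 6 of 6 higher at an adjusted p under 0.05. The sum of 6 astrocyte markers was 4473 to 5153 CPM in sham and 5990 to 9028 CPM in BCAS mice, with 5 of 6 higher.

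Set against the summed microglial markers of the same library, the 4 genes with the clearest rise took different positions. Slc11a1 amounted to 0.784% ± 0.114 of that sum in sham and 2.10% ± 0.590 in BCAS mice (SD, n = 4), higher in all 4 BCAS mice. Hmox1 amounted to 0.915% ± 0.0852 and 1.07% ± 0.394, and Cp to 5.67% ± 0.384 and 4.57% ± 1.87, with the groups overlapping for both. Ftl1 amounted to 26.1% ± 0.997 and 14.8% ± 3.16, lower in all 4 BCAS mice. Relative to the leptomeningeal sum, Slc11a1 was also higher in BCAS mice, Ftl1 lower, and Cp and Hmox1 overlapped. Relative to the astrocyte sum, all 4 genes were higher in every BCAS mouse than in any sham mouse, with Ftl1 at 2.08% ± 0.0593 and 4.89% ± 2.08, Cp at 0.452% ± 0.0347 and 1.56% ± 0.910, and Hmox1 at 0.0731% ± 0.0105 and 0.352% ± 0.165 (SD, n = 4). The same held for the oligodendrocyte, endothelial and neuronal sums. The astrocyte sum was mostly Slc1a2, with means of 3533 CPM in sham and 3581 CPM in BCAS mice. Gfap of the same list had a log2 fold change of 3.90, above those of Ftl1, Cp and Hmox1 and below that of Slc11a1. The shares of marker sums were chosen after the values were seen, and the part of a changed cell composition in any of these results was not tested.

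**Figure D4:**
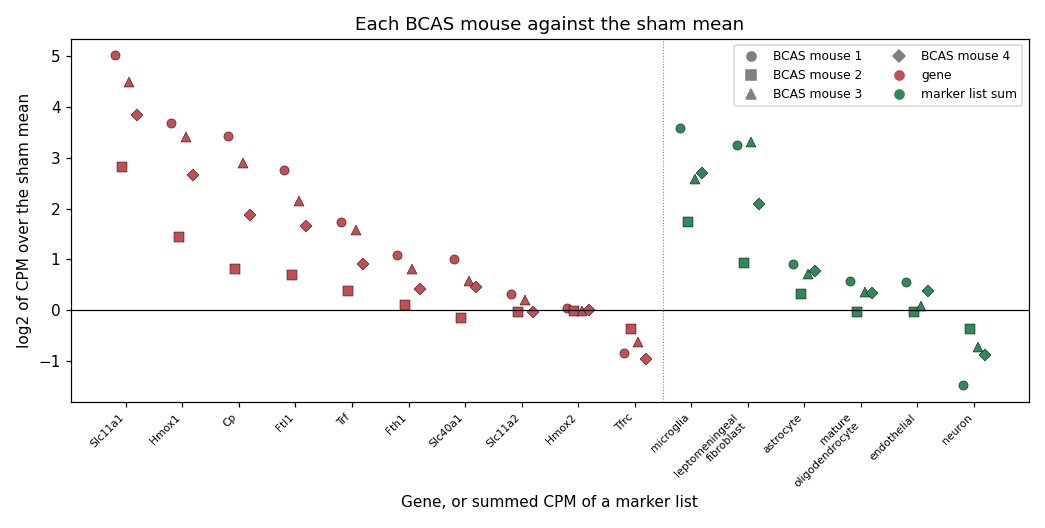
Log2 of the CPM of each BCAS mouse over the sham mean, for the 10 genes in red and for the summed CPM of 6 lists of cell type markers in green, with a symbol for each mouse. Mouse 1 is highest and mouse 2 lowest for 9 genes, and the microglial sum, at 1.74 to 3.59, lies between Slc11a1, at 2.81 to 5.02, and Ftl1, at 0.69 to 2.75.

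Blood left in the tissue and infiltrating myeloid cells were checked because both carry iron genes. The summed CPM of 6 red blood cell genes was 59.4 to 80.8 in sham and 94.5 to 124 in BCAS mice. Of the hemoglobin genes, Hba-a1 and Hbb-bs rose, with log2 fold changes of 0.41 and 0.58 (edgeR, adjusted p = 0.0289 and 0.0155). The sum of 8 monocyte and neutrophil markers was 0.785 to 1.62 CPM in sham mice and 84.9, 3.92, 55.0 and 14.1 CPM in BCAS mice 1 to 4. Ly6c2 of monocytes had 3, 2, 0 and 1 counts in sham and 464, 14, 202 and 37 in BCAS mice 1 to 4. It passed the filter on low counts only through the BCAS mice, so its call is no independent support. Ccr2 of monocytes rose, from 7, 21, 15 and 6 counts to 922, 39, 446 and 123 (edgeR, adjusted p = 0.0091). The other 6 did not pass the filter on low counts, which asks for enough counts in at least 4 libraries, and were not tested. Of these, the neutrophil marker Ly6g had 0 counts in all 8 libraries, whereas S100a9, which neutrophils and monocytes express, had 6, 1, 4 and 0 counts in sham and 92, 7, 98 and 16 in BCAS mice 1 to 4. S100a8 had 1, 0, 6 and 5 and then 43, 5, 69 and 12 counts, and Chil3 had 5, 1, 0 and 0 and then 75, 7, 76 and 13 counts. Plac8 had 2 counts in sham mouse 1, none in the other sham mice, and 323, 4, 121 and 52 counts in the BCAS mice. Border-associated macrophage markers summed to 16.6 to 20.5 CPM in sham and 30.6 to 90.9 CPM in BCAS mice, with 4 of 6 higher. Markers of the striatum, which lies below the cortex, summed to 223 to 390 CPM in sham mice, 295 to 312 CPM in BCAS mice 1 to 3 and 625 CPM in BCAS mouse 4, which stood apart. Of these 6 markers, Adora2a rose (log2 fold change 0.99, edgeR, adjusted p = 0.0460). The part of these cells in the rise of Slc11a1 and Hmox1 was not tested.

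The nearest profiles were found by the root-mean-square difference of log2 CPM, relative to the sham mean, over the 8 libraries. Fli1, Creg1 and Ifngr1 were nearest to Ftl1, at 0.086 to 0.10 on the log2 scale. Capg, Ctss and C1qb were nearest to Slc11a1, at 0.13 to 0.19. For Hmox1 they were Gpsm3, Ifitm3 and Psmb9, at 0.10 to 0.17, and for Cp they were Igf1, Stab1 and Col5a2, at 0.165 to 0.169. For Trf they were 0.18 to 0.21, to Cdca8, Arhgap22 and Gm11423. This is a description of likeness over 8 libraries of which the main difference is the group.

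A wider list of iron and heme genes held 56 further genes, of which 48 could be tested. At an adjusted p under 0.05, 18 rose, 1 fell and 29 did not pass, against 19.2% of all tested genes that rose and 12.8% that fell. Past both thresholds, 10 rose and 1 fell, against 11% and 1.28% of all tested genes, and the 10 became 5 without sham mouse 1 and 4 with limma-voom. The 48 had a median log2 fold change of 0.21, and the number that rose was 9 to 22 when 1 mouse was left out. The lowest number came without sham mouse 1 or sham mouse 4, and the highest without BCAS mouse 2.

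The 14 tested genes of iron uptake include Tfrc, Trf, Slc11a1 and Slc11a2. Of the 14, 9 rose and 1, Tfrc, fell at an adjusted p under 0.05, against 19.2% and 12.8% of all tested genes. The number that rose was 4 to 9 when 1 mouse was left out, lowest without sham mouse 1, and 3 with limma-voom and 5 with the replicate block. Slc39a8 and Slc39a14, importers with log2 fold changes of 0.83 and 0.43, each lost the call in 8 of 17 alternative fits, among them those without each sham mouse. The 5 further uptake genes past both thresholds were Lcn2, Steap4, Scara5, Cybrd1 and Steap3. Lcn2, which encodes lipocalin-2, a protein that binds siderophore-bound iron and that reactive astrocytes secrete, was counted 3, 2, 12 and 2 times in sham and 3053, 36, 1488 and 337 times in BCAS mice 1 to 4 (edgeR, adjusted p = 0.00642). With sham mice 1, 2 and 4 at or under 3 counts, Lcn2 passed the filter on low counts through the BCAS mice. Its call, counted among the genes that rose, is therefore no independent support. The fitted log2 fold change of 7.68 is no exact size and lay between 4.47 and 8.64 over the alternatives. The BCAS mice all lay above the sham mice but differed widely, and limma-voom did not make the call (adjusted p = 0.211). The ferrireductases Steap4, Cybrd1 and Steap3, whose products reduce ferric iron before its transport, had log2 fold changes of 4.57, 2.80 and 1.91 (edgeR, adjusted p = 0.0105, 0.00201 and 0.0156). Cybrd1 kept its call in all 17 alternative fits, whereas Steap4 lost it with limma-voom (adjusted p = 0.126). Steap3 overlapped between the groups and lost its call with limma-voom, with the replicate number as a block and without sham mouse 1 (adjusted p of at most 0.0609 over the alternatives). Scara5, a ferritin receptor, had a log2 fold change of 2.94 (edgeR, adjusted p = 0.0168) and lost the call with limma-voom and without sham mouse 1, 2 or 4 (adjusted p of at most 0.0691 over the alternatives). The lysosomal channel Mcoln1 had 65.3 ± 3.38 and 61.5 ± 3.99 CPM (SD, n = 4) and did not pass.

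In iron sensing, the genes of the cellular sensors did not pass the test. The iron regulatory protein gene Ireb2 had a log2 fold change of 0.19 (edgeR, adjusted p = 0.0941), and Fbxl5, whose product degrades it when iron is plentiful, one of -0.16 (edgeR, adjusted p = 0.110). Of the systemic axis, Bmp6, the ligand that drives hepcidin in liver, rose from 17.5 ± 2.77 to 36.7 ± 6.81 CPM (SD, n = 4; edgeR, adjusted p = 0.00380). Hfe, which binds the transferrin receptor, rose by 1.64 on the log2 scale (edgeR, adjusted p = 0.0211), with overlapping groups, and lost the call with limma-voom, with the replicate block and without sham mouse 1, 3 or 4 (adjusted p of at most 0.0680 over the alternatives). The hemojuvelin gene, named Hfe2 in the annotation, was the only one of the 48 further genes that fell, from 44, 35, 26 and 35 counts to 11, 7, 4 and 11 counts (log2 fold change -2.30, edgeR, adjusted p = 0.00302). Hepcidin itself (Hamp) had too few counts to be tested.

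Of 9 heme synthesis genes, only Ppox passed an adjusted p under 0.05, against 32% of all tested genes. Ppox had a log2 fold change of 0.39 (edgeR, adjusted p = 0.0340), and its call was lost in 8 of 17 alternative fits. These included the fits without each sham mouse and without BCAS mouse 1, 3 or 4, and the highest adjusted p over the alternatives was 0.0952. Alas1, the first and rate-limiting enzyme, had 64.3 ± 2.80 and 74.5 ± 12.03 CPM, and Fech, which inserts iron into the ring, had 69.5 ± 3.20 and 69.1 ± 3.85 CPM (SD, n = 4). None of 7 mitochondrial iron and iron-sulfur genes passed, against the same 32%. Among them was the scaffold protein gene Iscu, with a log2 fold change of 0.06. None passed both thresholds in either of these groups, against 12.2% of all tested genes.

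Of the genes around heme breakdown and uptake, 5 of 11 rose, Hmox1 included, against 19.2% of all tested genes. Leaving out sham mouse 2 or 4, or BCAS mouse 3, left 2 that rose, leaving out sham mouse 1 or 3 left 3, and leaving out BCAS mouse 2 gave 7. Lrp1, a receptor of the hemopexin-heme complex among many ligands, had the highest level, 653 ± 52.9 CPM in sham and 1029 ± 240 CPM in BCAS mice (SD, n = 4; edgeR, adjusted p = 0.0218), and lost the call without sham mouse 2, 3 or 4 or BCAS mouse 3 (adjusted p of at most 0.0674 over the alternatives). Slc48a1, which moves heme out of lysosomes, had a log2 fold change of -0.19 (edgeR, adjusted p = 0.123). Hp, the hemoglobin scavenger haptoglobin, was counted 12, 3, 3 and 8 times in sham and 230, 9, 186 and 25 times in BCAS mice 1 to 4 (log2 fold change 3.82, edgeR, adjusted p = 0.0220). It rested on few sham counts, overlapped between the groups, and lost the call with both uses of limma and without any of the sham mice or BCAS mouse 3 (adjusted p of at most 0.140 over the alternatives). The regulators of Hmox1 both rose. Nfe2l2, its activator NRF2, went from 16.6 ± 0.602 to 81.8 ± 37.2 CPM (log2 fold change 2.30, edgeR, adjusted p = 0.00279). Bach1, its heme-sensitive repressor, had 20.7 ± 1.83 and 50.9 ± 21.4 CPM (log2 fold change 1.30, edgeR, adjusted p = 0.00963). Keap1, which holds NRF2 in check, had 71.0 ± 3.71 and 67.2 ± 3.87 CPM (SD, n = 4; edgeR, adjusted p = 0.429).

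**Figure D5:**
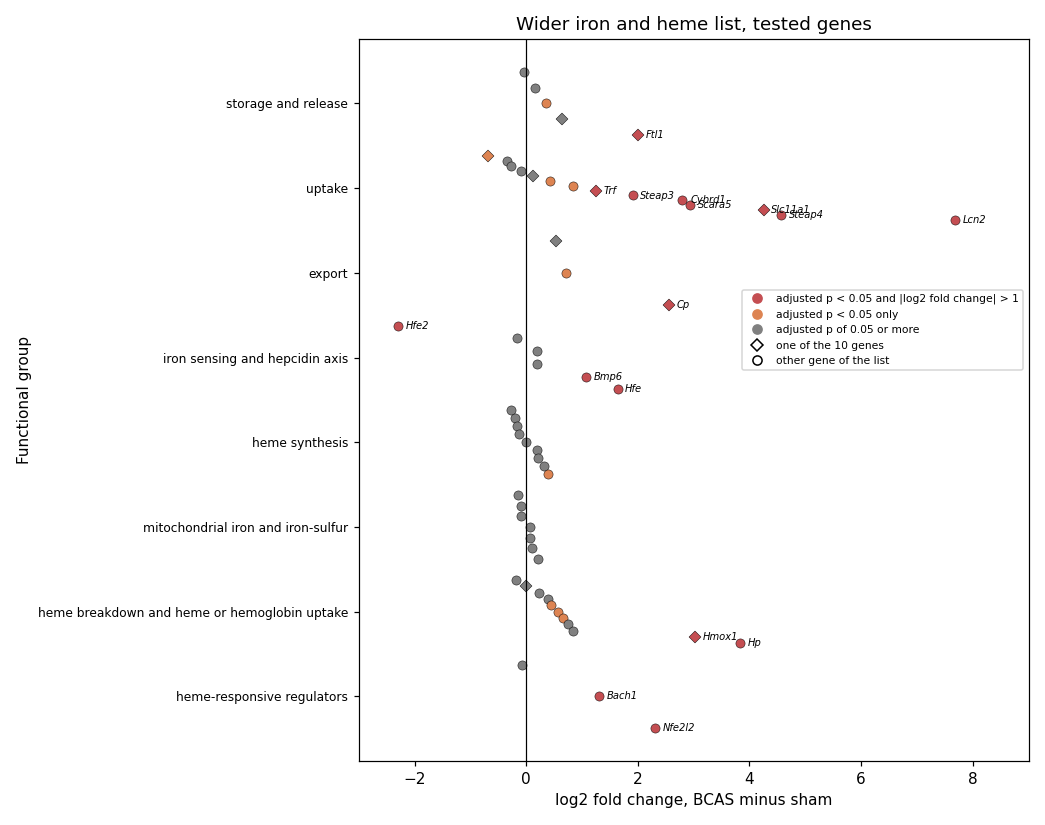
Log2 fold change of BCAS minus sham for the 58 tested genes of the wider iron and heme list by functional group, with diamonds for the 10 genes and circles for the other genes, coloured by the thresholds passed. Lcn2, whose fitted value rests on few sham counts, lies to the right and Hfe2 to the left, and the heme synthesis and mitochondrial genes lie close to 0.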

How the data were processed

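Libraries were made from mRNA purified out of the total RNA of the right cerebral cortex, 1 mouse per library, and sequenced as paired reads. The authors trimmed the reads with Trim Galore, aligned them to mm10 with HISAT2, sorted them with SAMtools 1.9 and counted read pairs on exons with featureCounts, and deposited the raw counts per gene. The table headers name featureCounts 2.0.1 with GENCODE vM20 and no strand option, whereas the labels name 1.6.3 and the methods name RefSeq genes. Symbols were joined from GENCODE vM21 by gene ID. From the deposited counts, CPM, RPKM and tests were computed with edgeR 4.0.16 in R 4.3.3 (TMM on library sizes summed over the tested genes, filterByExpr with minimum count 10 and minimum total 15, quasi-likelihood F-test, no covariates, 4 against 4 mice). Standard errors were derived as the log2 fold change over the square root of F. The thresholds of the study's methods were used, 0.05 for the adjusted p and 1 for the size of the log2 fold change. No 2 libraries of a group agreed within sampling noise. Lengths for RPKM were all exon bases, or, as an alternative added after seeing the data, exon bases under no other gene. Alternatives used DESeq2 1.42.0, limma 3.58.1, other scalings, other filters, a replicate block and fits without each mouse. The fits were tested on simulated data that gave both groups the spread of the sham mice. The wider spread between the BCAS mice was not simulated.

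The 10 genes, the wider list and the marker lists were chosen with earlier results of these data known. All 10 genes are named. Of the wider list, genes past both thresholds and the 2 with the highest mean CPM of each functional group are named, except 1 gene that is not reported here, and Slc39a8, Slc39a14, Heph, Ppox, Hamp, Hba-a1, Hbb-bs, Cdip1 and single markers were named after their values were seen. For each of the 10 genes past both thresholds the 3 nearest profiles are named.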

Additional observations from a re-analysis of the deposited data

How the results depend on the processing

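Ftl1, Slc11a1, Cp and Hmox1 passed both thresholds and Tfrc an adjusted p under 0.05 in the 17 alternative fits of other scalings, filters and tools, the block and leaving out a mouse, and Slc11a2 and Hmox2 passed in none. Fth1 passed in 3 and Slc40a1 in 1, and Trf was lost in 9. When fold changes were tested against a log2 fold change of 1, 744 of all tested genes passed, and 3 of the 10, Slc11a1, Cp and Hmox1. Between 2549 (without sham mouse 1) and 8166 (without BCAS mouse 2) genes had an adjusted p under 0.05 when 1 mouse was left out, of which 418 and 3675 were lower in BCAS mice and 2131 and 4491 higher, and 1644 to 2967 passed both thresholds. The log2 fold change of Hmox2 was -0.013 with upper quartile scaling and -0.0037 without a filter, and -0.021 to 0.023 when 1 mouse was left out. With the replicate block, 3546 genes had an adjusted p under 0.05, and Trf lost its call (log2 fold change 1.24, edgeR, adjusted p = 0.0667). Same-numbered mice did not deviate together (correlations across genes of -0.10 to 0.0013), so the numbers do not pair them. The causes of these shifts were not tested. The smallest library limits low genes, with a floor of 0.187 CPM.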
